A study of Mus musculus with 6 samples.

Results

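Secondary granule proteins are the antimicrobial, iron-binding and adhesive cargo of the specific granules of neutrophils, and the genes of 9 of them, chosen by name, were examined in peripheral blood (PB) neutrophils of mice with experimental periodontitis. These were *Ltf*, *Lcn2*, *Hp*, *Camp*, *Ngp*, *Lyz2*, *Chil3*, *Cd177* and *Olfm4*, which are 9 of the 29097 genes in the deposited table. All 9 passed the filter on low values, a mean of at least 1 FPKM (fragments scaled to gene length and library size) over all libraries, which left 10440 genes for testing. The mice were C57BL/6 males of 8 weeks. Periodontitis in the LIP group, labelled Lig, came from silk ligatures tied to molars, and neutrophils of both groups were taken at 14 d. Ctrl mice had no ligatures. Blood neutrophils were sorted as CD45+CD11b+Ly6G+ cells, and each group had 3 Smart-seq2 libraries, each from the neutrophils of 5 mice combined, so differences between single mice were not measured. The total counts were 53059029, 54358483 and 52301060 in Ctrl 1, 2 and 3 and 56504173, 57262379 and 52186555 in LIP 1, 2 and 3. The comparison asked how the transcripts of stored granule proteins differed in circulating neutrophils after 14 d of periodontitis.

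Neutrophils store antimicrobial proteins in granules that are filled at successive steps of maturation in the bone marrow. Primary granules arise in promyelocytes, secondary granules in myelocytes and metamyelocytes, and tertiary granules in later forms, so that a granule holds what the cell was transcribing while it formed. Circulating neutrophils keep the finished proteins and release them at sites of infection, and the transcripts of secondary granule proteins are known to be highest in marrow precursors and to decline as the cells mature. The surface proteins used for the sort were all detected as transcripts. *Ptprc*, which encodes CD45, measured 58.0 ± 13.2 FPKM in Ctrl and 106 ± 7.60 in LIP (SD, 3 libraries each), *Itgam*, which encodes CD11b, 23.3 ± 7.34 and 62.9 ± 2.55 FPKM, and *Ly6g* 18.8 ± 0.692 and 44.7 ± 5.95 FPKM.

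All 9 genes were higher in LIP than in Ctrl PB neutrophils by edgeR's quasi-likelihood test on TMM-scaled counts (adjusted p < 0.05), their log2 fold changes lying between 0.39 and 2.06 around a median of 1.12, but 6 of them were lower and 2 higher in LIP when libraries were scaled on mature neutrophil genes, where 88.8% of all genes tested were lower and 0.498% higher. With TMM, among all 10440 genes tested, 26.5% were higher in LIP, 27.2% were lower and the median log2 fold change was -0.09. In TMM-normalized counts (CPM, counts scaled to the size of the library but not to gene length), every LIP library lay above every Ctrl library for all 9 genes, which was so for 30.3% of the genes tested. In FPKM, which carry no TMM factor, this held for 8 of the 9 (all but *Camp*) and for 21.6% of the genes tested. TMM assumes that most genes do not change, and its scaling factors for Ctrl 1, 2 and 3 were 1.14, 1.10 and 1.12, against 0.887, 0.888 and 0.902 for LIP 1, 2 and 3. With library totals in place of these factors, 1919 genes were higher and 4146 lower, against 2766 and 2835 with TMM, and the median over all genes was -0.42. The median of the 9 genes lay 1.21 above that of all genes on the log2 scale with TMM, a distance that a change of library sizes leaves nearly as it is. In bulk libraries such as these, fewer cells of a type and less RNA per cell cannot be told apart.

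**Figure D1:**
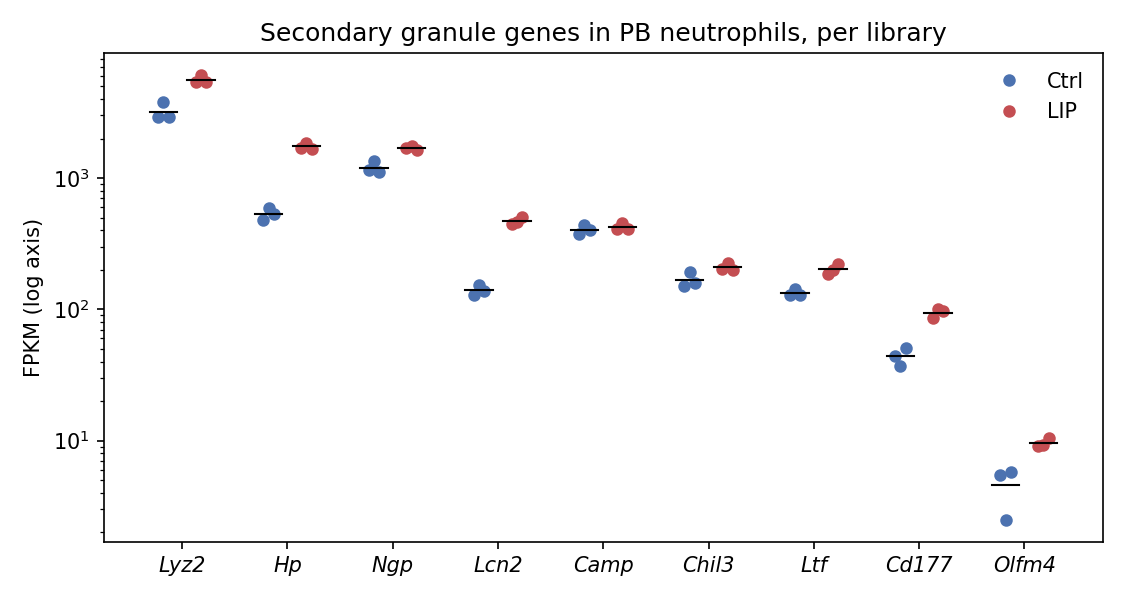
FPKM of the 9 secondary granule genes in each PB neutrophil library on a log axis, with Ctrl in blue, LIP in red and black lines at the group means (n = 3 libraries each). The 3 LIP values lie above the 3 Ctrl values for each gene except *Camp*, whose Ctrl 2 value of 436 FPKM lies within the LIP values; when libraries are scaled on mature neutrophil genes, 6 of the 9 genes and 88.8% of all genes tested are lower in LIP.

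Iron and the compounds that carry it are withheld from microbes by 3 of the proteins. *Lcn2* (ENSMUSG00000026822, chr2:32384633-32387797 on the minus strand) encodes lipocalin 2, which captures bacterial siderophores. Its level was 127, 154 and 138 FPKM in Ctrl 1, 2 and 3 and 449.6, 463 and 505 FPKM in LIP 1, 2 and 3. All LIP libraries were far above all Ctrl libraries, and the spread within each group was small beside the gap between them. Its log2 fold change came to 2.06 (standard error, SE, 0.103; edgeR, adjusted p = 2.15e-07), the largest of the 9 and above that of 98.6% of the genes tested. *Hp* (ENSMUSG00000031722, chr8:109575128-109579172 on the minus strand) encodes haptoglobin, a binder of free haemoglobin that is best known as an acute-phase protein of the liver and is also stored in neutrophil granules. It measured 478, 593 and 533 FPKM in the Ctrl libraries and 1694, 1854 and 1668 FPKM in the LIP libraries. Again the groups were well apart, and the lowest LIP library was LIP 3. *Hp* rose 4.02-fold (log2 fold change 2.01; SE 0.0994; edgeR, adjusted p = 2.15e-07), close to the 4.17-fold rise of *Lcn2*. *Ltf* (ENSMUSG00000032496, chr9:111019271-111042767 on the plus strand) encodes lactoferrin, the classical marker of secondary granules, which binds iron itself. In Ctrl it stood at 128, 143 and 128 FPKM and in LIP at 187, 200.4 and 220.0 FPKM. The groups did not overlap, though the step was smaller than for *Lcn2* and *Hp*. *Ltf* had a log2 fold change of 0.91 (SE 0.0976; edgeR, adjusted p = 2.59e-05).

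Direct attack on bacteria is the role of *Lyz2* and *Camp*, and *Ngp* encodes a cathelicidin-like protein of the cystatin superfamily. *Lyz2* (ENSMUSG00000069516, chr10:117277331-117282321 on the minus strand) encodes lysozyme M, which cleaves the peptidoglycan of bacterial walls and is also made by monocytes and macrophages. Its FPKM values were 2907, 3772 and 2892 in Ctrl 1, 2 and 3 and 5359.7, 6069 and 5398 in LIP 1, 2 and 3. Ctrl 2 was the highest Ctrl library but stayed below all LIP libraries. *Lyz2* was the most abundant of the 9 per unit length in both groups, ranking 16 among all 29097 genes by mean FPKM in Ctrl and 12 in LIP. It rose 2.17-fold (log2 fold change 1.12, SE 0.109; edgeR, adjusted p = 1.36e-05). *Ngp* (ENSMUSG00000032484, chr9:110419747-110423012 on the plus strand), neutrophilic granule protein, measured 1148, 1342 and 1112 FPKM in Ctrl and 1687, 1764 and 1647 FPKM in LIP. The LIP libraries were close to each other and above all Ctrl libraries. The change of *Ngp* was 0.81 on the log2 scale (SE 0.0907; edgeR, adjusted p = 3.66e-05). *Camp* (ENSMUSG00000038357, chr9:109847379-109849617 on the minus strand) encodes the precursor of the mouse cathelicidin peptide, which is freed by proteolysis after release. In FPKM *Camp* measured 373, 436 and 401 in Ctrl and 412, 458 and 410.3 in LIP. These ranges overlapped, since Ctrl 2 exceeded both LIP 1 and LIP 3. In CPM the same libraries gave 272, 329 and 299 in Ctrl and 382, 421 and 377 in LIP, without overlap. *Camp* had a log2 fold change of 0.39 (SE 0.104; edgeR, adjusted p = 0.00988), the smallest of the 9. This call was lost with library totals (log2 fold change 0.07; edgeR, adjusted p = 0.568), with a filter of at least 5 FPKM (0.21; edgeR, adjusted p = 0.0894) and in limma on log2(FPKM + 1) (0.08; Benjamini-Hochberg adjusted p = 0.430).

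The other 3 genes encode a lectin-like protein, a surface protein and a secreted glycoprotein. *Chil3* (ENSMUSG00000040809, chr3:106147554-106167564 on the minus strand) encodes Ym1, a chitinase-like protein that binds sugars without cutting chitin. Its values were 152, 191 and 158 FPKM in the Ctrl libraries and 204, 227 and 199 FPKM in the LIP libraries. The groups lay side by side, with Ctrl 2 just under LIP 3. For *Chil3* the log2 fold change stood at 0.63 (SE 0.119; edgeR, adjusted p = 0.00124). *Cd177* (ENSMUSG00000052212, chr7:24743983-24760311 on the minus strand) encodes a lipid-anchored protein of the secondary granule membrane and the cell surface that binds the endothelial protein PECAM1. It reached 44.4, 37.2 and 51.1 FPKM in Ctrl and 85.6, 100.4 and 96.8 FPKM in LIP. All LIP libraries were above all Ctrl libraries, and Ctrl 2 was the lowest. *Cd177* rose 2.64-fold (log2 fold change 1.40, SE 0.131; edgeR, adjusted p = 1.00e-05). *Olfm4* (ENSMUSG00000022026, chr14:79984081-80023139 on the plus strand) encodes olfactomedin 4, a glycoprotein that is known to be present in only a subset of neutrophils. It was the least abundant of the 9 by far, at 5.47, 2.50 and 5.81 FPKM in Ctrl and 9.17, 9.25 and 10.4 FPKM in LIP. It was counted in 930, 437 and 977 reads of the Ctrl libraries and in 1647, 1673 and 1747 reads of the LIP libraries, so that Ctrl 2 had under 1 read for every 2 in the other Ctrl libraries while the LIP libraries were alike. *Olfm4* rose 2.60-fold with the largest error of the 9 (log2 fold change 1.38, SE 0.290; edgeR, adjusted p = 0.00249), and without Ctrl 2 the log2 fold change was 1.11 (adjusted p = 0.00183 from edgeR).

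The 9 genes did not vary alike among the libraries of a group. Ctrl 2 held the highest Ctrl value in FPKM for 7 of them, and for *Cd177* and *Olfm4* it held the lowest. Ctrl 2 was also the highest Ctrl library for 12 of 20 mature neutrophil genes and for 34.7% of all genes tested. Among the LIP libraries, LIP 2 was highest for 6 of the 9 and LIP 3 for *Lcn2*, *Ltf* and *Olfm4*, while LIP 2 was highest for 12 of the 20 mature neutrophil genes and 35.0% of all genes tested. The lowest count in a library was 14195 for *Chil3*, 6231 for *Cd177* and 437 for *Olfm4*, and it was above that of *Chil3* for the other 6. PCR copies are counted as reads in Smart-seq2, so counts are not independent molecules.

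Summed over the 9 genes, FPKM came to 5362, 6671 and 5420.4 in Ctrl and 10088, 11146 and 10154 in LIP. As a share of all FPKM this was 1.08% ± 0.106 in Ctrl and 2.44% ± 0.118 in LIP (± SD, 3 libraries a group). Erythroid genes took 34.2% ± 0.695 of all FPKM in Ctrl and 4.62% ± 0.105 in LIP, and without them the share of the 9 granule genes was 1.64% ± 0.143 in Ctrl and 2.56% ± 0.121 in LIP. *Lyz2* made up 54.7% ± 1.65 of the FPKM of the 9 genes in Ctrl and 53.6% ± 0.756 in LIP, and *Hp* went from 9.22% ± 0.539 to 16.6% ± 0.180 (SD, 3 libraries each). By mean FPKM the order in Ctrl ran *Lyz2*, *Ngp*, *Hp*, *Camp*, *Chil3*, *Lcn2*, *Ltf*, *Cd177*, *Olfm4*. In this order the range of *Lcn2* overlapped those of its neighbours *Chil3* and *Ltf* in Ctrl, while *Chil3* and *Ltf* did not overlap. In LIP the order ran *Lyz2*, *Hp*, *Ngp*, *Lcn2*, *Camp*, *Chil3*, *Ltf*, *Cd177*, *Olfm4*. There *Hp* and *Ngp* overlapped, as did *Lcn2* with *Camp* and *Chil3* with *Ltf*. The genes that moved up in the order were thus *Hp*, past *Ngp*, and *Lcn2*, past *Chil3* and *Camp*.

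Ratios between these genes within a library do not depend on how libraries are scaled. The FPKM ratio of *Lcn2* to *Ltf* was 1.00, 1.08 and 1.08 in Ctrl 1, 2 and 3 and 2.40, 2.31 and 2.29 in LIP 1, 2 and 3. The transcripts stood near parity in all Ctrl libraries, and in all LIP libraries *Lcn2* exceeded *Ltf* clearly. For *Hp* to *Camp* the ratio was 1.28, 1.36 and 1.33 in Ctrl and 4.11, 4.05 and 4.07 in LIP. Within a group this ratio hardly varied, and the groups were far apart. *Lcn2* to *Hp*, in contrast, gave 0.267, 0.260 and 0.259 in Ctrl and 0.265, 0.250 and 0.302 in LIP. Here the LIP values spanned the Ctrl values, so no difference in the balance of these genes was seen beyond the spread. The ratio of *Ngp* to *Camp* had a mean of 2.98 ± 0.178 in Ctrl and 3.98 ± 0.123 in LIP (SD, 3 libraries each). For a single ratio, 3 libraries against 3 allow no two-sided exact permutation p under 0.1, so these ratios are given without a p.

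The libraries also differed in their content of transcripts that mark mature neutrophils, and each granule gene was therefore set against 20 such genes in the same library. These 20 include *S100a8*, *S100a9*, *Csf3r* and *Cxcr2*, and also *Cxcl2* and *Il1b*, which are not specific to mature neutrophils. All 20 were higher in LIP with TMM at a median log2 fold change of 1.80. When libraries were scaled on their own sum, 4 of the 20 were higher and 6 lower. *S100a9*, the most abundant, measured 7101 ± 738 FPKM in Ctrl and 23492 ± 753 FPKM in LIP, and *Stfa2l1* rose most (log2 fold change 2.33). Relative to the geometric mean of the 20 genes in FPKM, *Lcn2* stood at log2 ratios of -1.26, -1.04 and -1.21 in Ctrl and -0.91, -0.94 and -0.75 in LIP. The LIP values were all higher, by 0.30 on average. The same ratio for *Hp* was 0.65, 0.90 and 0.74 in Ctrl and 1.01, 1.06 and 0.98 in LIP, a mean difference of 0.25 with no overlap. With *Csf3r* alone as the reference these mean differences were 0.20 for *Lcn2* and 0.15 for *Hp*, and the groups overlapped. *Csf3r* measured 402, 257 and 387 FPKM in Ctrl 1, 2 and 3. Relative to it, Ctrl 2 lay above every LIP library for both genes. Against the 20 genes *Camp* showed the opposite, at 0.29, 0.46 and 0.33 in Ctrl and -1.03, -0.95 and -1.04 in LIP. On this scale *Camp* lay above the reference in all Ctrl libraries and below it in all LIP libraries. *Ltf*, *Ngp*, *Chil3*, *Lyz2* and *Cd177* were also lower in every LIP library than in every Ctrl library, by mean log2 differences of -0.85, -0.95, -1.12, -0.63 and -0.35. Lower values are the rule on such a scale: with libraries scaled on these 20 genes in edgeR, 88.8% of all genes tested were lower and 0.498% higher. *Olfm4* stood at -5.80, -6.99 and -5.78 in Ctrl and -6.52, -6.59 and -6.34 in LIP. The groups overlapped through Ctrl 2 alone, and the mean difference of -0.29 became -0.69 without Ctrl 2, -0.10 without Ctrl 1 and -0.0884 without Ctrl 3.

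A test of the same question came from edgeR with the summed counts of the 20 mature neutrophil genes as library sizes. Of this sum, *S100a8* made up 18.7% and 20.2% in Ctrl and LIP, *Cxcl2* 17.8% and 17.0%, *S100a9* 14.3% and 16.4%, and *Il1b* 13.7% and 14.3% (means of 3 libraries). Whether the sum follows neutrophil content alone was not tested. Under this scaling *Lcn2* and *Hp* were higher in LIP, with log2 fold changes of 0.22 (adjusted p = 0.0296 from edgeR) and 0.17 (adjusted p = 0.0439 from edgeR). *Camp*, *Chil3*, *Ngp*, *Ltf*, *Lyz2* and *Cd177* were lower, with log2 fold changes from -1.45 to -0.45, and *Olfm4* did not pass (log2 fold change -0.48, adjusted p = 0.187 from edgeR). The median over all genes was -1.94 here, with 52 genes higher and 9270 lower, and that of the 9 granule genes was -0.72. The change of reference moves all genes by about the same amount, so it leaves the order of the 9 and their distance from the median of all genes as they were.

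**Figure D2:**
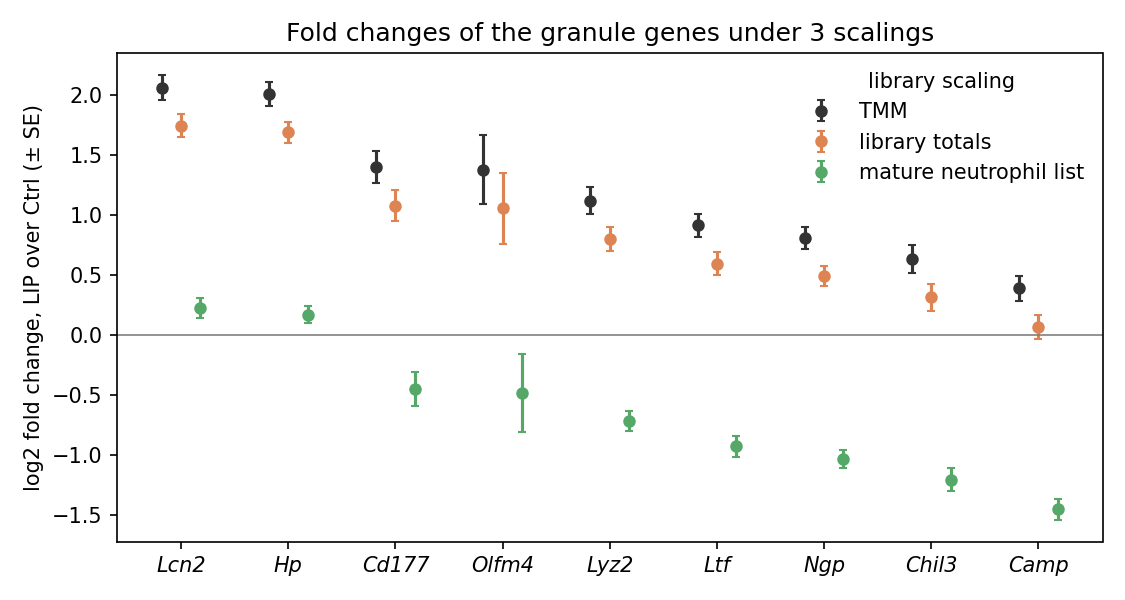
Log2 fold change of LIP over Ctrl (± standard error) for each granule gene from edgeR with TMM factors (black), library totals (orange) and the mature neutrophil list as reference (green), 3 libraries a group. All 9 are positive with TMM and with library totals, where *Camp* is at 0.07, whereas on the mature neutrophil list *Lcn2* and *Hp* stay above 0 and the other 7 lie below it.

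Other genes of neutrophil granules were listed for comparison. Of 21 further secondary and tertiary granule genes, 21 were higher in LIP with TMM, with a median log2 fold change of 1.74. On the mature neutrophil scaling 3 were higher and 8 lower, where 0.498% of all genes tested were higher and 88.8% lower. With library totals 17 of the 21 were higher, and in limma 19 with a pseudocount of 1 and 18 with 0.1. *Lrg1*, which encodes a leucine-rich glycoprotein of granules and plasma, was the most abundant and rose most, from 679.8 ± 45.6 to 3474 ± 36.4 FPKM (SD, 3 libraries each; log2 fold change 2.66). *Cybb*, which encodes the membrane subunit of the NADPH oxidase, changed least, from 54.2 ± 8.19 to 58.4 ± 4.21 FPKM with overlapping groups (log2 fold change 0.42, adjusted p = 0.0139 from edgeR). Its call was lost with library totals (edgeR, adjusted p = 0.518), with at least 5 FPKM (edgeR, 0.0918), in limma (Benjamini-Hochberg, 0.447 and 0.452) and without LIP 2 (edgeR, 0.0543). Of 10 primary granule genes in the table only 6 passed the filter. Their median was 0.01, and it ran from -0.16 without LIP 2 to 0.24 without LIP 1. With TMM *Cd63* (log2 fold change 1.18) and *Gusb* (0.50) were higher and *Serpinb1a* (-1.27) lower. *Serpinb1a*, though on this list, encodes a cytosolic inhibitor of granule proteases and not a granule protein. On the mature neutrophil scaling all 6 were lower, as were 88.8% of all genes. *Gusb* lost its call with library totals (edgeR, adjusted p = 0.247) and in limma. *Elane*, which encodes neutrophil elastase, was near the filter at 1.92 ± 0.831 FPKM in Ctrl and 0.607 ± 0.560 FPKM in LIP (adjusted p = 0.262 from edgeR), with no overlap in FPKM, and was called lower in limma on log2(FPKM + 1) (-0.89; Benjamini-Hochberg adjusted p = 0.0278) and on the mature neutrophil scaling. *Mpo*, *Ctsg*, *Ms4a3* and *Prss57* were below the filter. Summed over the 10 genes of this list, *Serpinb1a* included, FPKM was 122 ± 6.12 in Ctrl and 80.8 ± 3.30 in LIP. This was below the level of *Ngp* alone in each group. *Serpinb1a* alone went from 68.8 ± 7.20 FPKM in Ctrl to 23.0 ± 2.49 FPKM in LIP. That fall is larger than the fall of the sum, so the other listed genes together were not lower. Among these, *Cd63* went from 12.1 ± 0.983 to 22.2 ± 1.95 FPKM and *Gusb* from 11.1 ± 0.930 to 12.7 ± 0.356 FPKM. The mean was lower in LIP for *Ctsc* (24.7 ± 2.59 and 20.5 ± 3.29 FPKM, overlapping), *Elane*, *Mpo*, *Prtn3*, *Prss57* and *Ms4a3*, and *Ctsg* was near 0. *Mpo* measured 0.641, 0.886 and 0.934 FPKM in Ctrl and 0, 0 and 0.201 FPKM in LIP, without overlap.

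Of 14 genes of granule sorting and exocytosis, 11 were higher in LIP and 2 lower with TMM (median 1.10). On the mature neutrophil scaling none was higher and 8 were lower, where 0.498% of all genes tested were higher and 88.8% lower. With library totals, without a filter and in limma with either pseudocount, 8 of the 14 were higher. *Srgn*, which encodes the proteoglycan core on which granule proteins are packed, went from 1177 ± 91.0 to 2355 ± 125 FPKM (SD, 3 libraries each), *Stx11*, a syntaxin gene, rose most (log2 fold change 1.85), and *Vps45* (-1.74) and *Sytl1* (-1.07, adjusted p = 0.0490 from edgeR) were lower. The call of *Sytl1* was lost with median-of-ratios factors (edgeR, adjusted p = 0.0583), no filter (edgeR, 0.216), filterByExpr (edgeR, 0.123), DESeq2 (Benjamini-Hochberg, 0.0775), the replicate block (edgeR, 0.105) and in 5 of the 6 fits that left out a library. Among 9 tested binding partners, receptors or processing enzymes of the granule proteins, 5 were higher with TMM and none on the mature neutrophil scaling, where 6 were lower, and with library totals 5 were higher and 1 lower. The lists share genes: *Mmp9*, *Itgb2*, *Fpr2* and *Itgam* are also among the further secondary and tertiary granule genes. Some primary granule genes, such as *Elane*, are likewise counted here again. The most abundant in LIP was *Mmp9*, whose gelatinase is bound by lipocalin 2 in humans, with 202 ± 29.1 FPKM in Ctrl and 585 ± 21.9 FPKM in LIP (log2 fold change 1.84), and in Ctrl it was the integrin gene *Itgb2*, with 235 ± 32.4 FPKM in Ctrl and 520.1 ± 6.996 FPKM in LIP. *Fpr2*, a receptor for cathelicidin peptides, had a log2 fold change of 1.88, and *Lrp1*, a lactoferrin receptor, one of 0.86, which lost its call in limma (Benjamini-Hochberg adjusted p = 0.147 with a pseudocount of 1 and 0.171 with 0.1). *Pecam1*, which encodes the partner of CD177, had a log2 fold change of -0.41 (edgeR, adjusted p = 0.104) and was called lower with library totals (-0.73; edgeR, adjusted p = 0.0125), with at least 5 FPKM, in limma, on the mature neutrophil scaling and without Ctrl 2 or LIP 3.

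Close relatives of the 9 genes were listed because reads can be divided between near-identical copies, and the sources used here do not state how shared reads were counted. *Lyz1*, the neighbouring lysozyme gene that is expressed mainly in Paneth cells of the gut, had counts of 215, 132 and 243 in Ctrl and 448, 867 and 500 in LIP. These counts are minute beside those of *Lyz2* in the same libraries, and its log2 fold change of 1.88 (SE 0.374; edgeR, adjusted p = 0.00181) is uncertain for that reason. *Chil4*, the closest relative of *Chil3*, had counts of 3, 14 and 0 in Ctrl and 6, 37 and 25 in LIP, against 14195, 18410 and 14660 and 20156, 22619 and 18311 for *Chil3*. On the mature neutrophil scaling, with 88.8% of all genes tested lower, 1 of the 5 tested relatives was higher and 2 lower. With TMM all 5 tested relatives were higher in LIP. They were *Chil1* (log2 fold change 2.14), *Lyz1*, *Chil5* (1.74), the transferrin gene *Trf* (1.34) and *Olfm1* (0.98), which lost its call with library totals (edgeR, adjusted p = 0.0566). *Chil5* overlaps another gene of similar level, and its value is uncertain. None of the 9 granule genes overlaps another gene of the table in its coordinates.

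Transcription factors of granulocyte development were also examined, since C/EBP factors, and C/EBP epsilon above all, are known to drive secondary granule genes in precursors. Of 11 tested, 8 were higher in LIP and 1 lower with TMM (median log2 fold change 1.19). On the mature neutrophil scaling 8 were lower and none higher, where 88.8% of all genes tested were lower and 0.498% higher. *Cebpe*, which encodes C/EBP epsilon, measured 10.6, 13.6 and 12.7 FPKM in Ctrl and 12.2, 14.2 and 5.56 FPKM in LIP. The groups overlapped and the LIP libraries were widely spread, and its log2 fold change of 0.10 (SE 0.329) did not pass (adjusted p = 0.803 from edgeR). *Cebpb*, which encodes the C/EBP factor of emergency granulopoiesis, was the most abundant of the list, at 2069, 2195 and 2038 FPKM in Ctrl and 4543, 4302 and 4573 FPKM in LIP. All LIP libraries were above all Ctrl libraries (log2 fold change 1.40, adjusted p = 1.70e-07 from edgeR). *Cebpd* rose most (1.83), and *Klf5*, *Spi1*, *Stat3*, *Cebpa*, *Cux1* and *Cebpg* had log2 fold changes of 1.73, 1.53, 1.34, 1.19, 1.17 and 0.78. *Runx1* did not pass (0.07, adjusted p = 0.687 from edgeR), and *Lef1*, which is also a T cell gene, was lower (-2.80). *Gfi1* and *Myb* were below the filter. *Cebpb*, *Cebpd*, *Cebpg*, *Stat3* and *Lef1* overlap other expressed genes, and their reads cannot be fully separated from those.

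The sorted samples also held transcripts of other blood cells, and these moved with the groups. Of 9 erythroid genes tested, 9 were lower in LIP (median log2 fold change -3.01), with a summed FPKM over the 11 erythroid genes in the table of 180807, 186301 and 187039 in Ctrl and 20218, 19507 and 19548 in LIP, and *Hba-a1* was the most abundant. *Slc4a1* fell most (log2 fold change -3.99), and *Klf1* was at 0 in the LIP libraries. Of 12 B cell genes, 12 were lower (median -2.53, from -2.86 for *Fcmr* to -2.15 for *Ighm*), with summed FPKM of 11003, 11985 and 11165 in Ctrl and 1824, 1820.0 and 1833 in LIP, led by *Cd74*. All 11 T cell genes tested were lower (median -2.50, from -3.38 for *Cd8a* to -1.32 for *Lck*), with sums over the 12 listed genes of 439.9, 477 and 422 FPKM in Ctrl and 73.8, 79.3 and 63.6 FPKM in LIP, led by *Trbc2*. In FPKM *Hba-a1* exceeded *Lyz2* in all 6 libraries, at 61984 ± 5674 in Ctrl and 7182 ± 203 in LIP. The part of these transcripts in the rise of the granule genes was not tested.

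Monocyte markers bear on *Lyz2*, which monocytes also transcribe at high levels. Of 10 monocyte, macrophage and dendritic cell genes tested, 9 were higher in LIP with TMM and *Ly86* was lower (-0.97). On the mature neutrophil scaling none of them was higher, where 0.498% of all genes tested were higher and 88.8% lower. Over the 13 listed genes, summed FPKM was 161, 142 and 152 in Ctrl and 243, 262 and 226 in LIP, with *Csf1r* the most abundant at 34.2 ± 9.39 and 72.2 ± 5.26 FPKM (SD, 3 libraries each) and *Ccr2* rising most (log2 fold change 1.72). *Cd163*, a scavenger receptor of macrophages for haptoglobin and haemoglobin, was close to 0 in both groups. The part of monocytes in the level and the rise of *Lyz2* was not tested. All 10 platelet genes were higher with TMM, with a median of 1.24, and none on the mature neutrophil scaling, against 0.498% of all genes. Their sums were 861, 1097 and 1032 FPKM in Ctrl and 1803, 1810.0 and 2119.7 FPKM in LIP, with *Ppbp* the most abundant. Their log2 fold changes ran from 1.08 for *Gp6* to 1.44 for *Itga2b*, a range that held the median of the granule genes, and *Gp6* lost its call in limma (Benjamini-Hochberg adjusted p = 0.0808 and 0.0838). Of 8 NK cell genes, 4 were higher with TMM (*Klrb1c*, *Ncr1*, *Klrk1* and *Klre1*) and none with library totals, and the most abundant, *Gzma*, did not pass. On the mature neutrophil scaling all 8 were lower, as were 88.8% of all genes tested. With a library left out, *Klre1* lost its call in 5 of 6 fits, *Ncr1* in 4 and *Klrk1* in 1, and *Gzma* passed without Ctrl 2 (log2 fold change 0.35; edgeR, adjusted p = 0.0223). The NK sums were 263 ± 25.4 FPKM in Ctrl and 257 ± 12.9 FPKM in LIP and overlapped. Among 7 eosinophil and basophil genes, *Siglecf* and *Gata2* were higher with TMM (neither on the mature neutrophil scaling) and *Il5ra* lower, with sums over the 9 genes in the table of 16.1 ± 3.64 FPKM in Ctrl and 20.2 ± 2.72 FPKM in LIP, and *Prg2* and *Prg3*, which encode granule proteins of eosinophils, were near 0. *Gata2* lost its call with library totals (edgeR, adjusted p = 0.0587) and in limma. What part these cells had in the granule gene values was not tested.

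**Figure D3:**
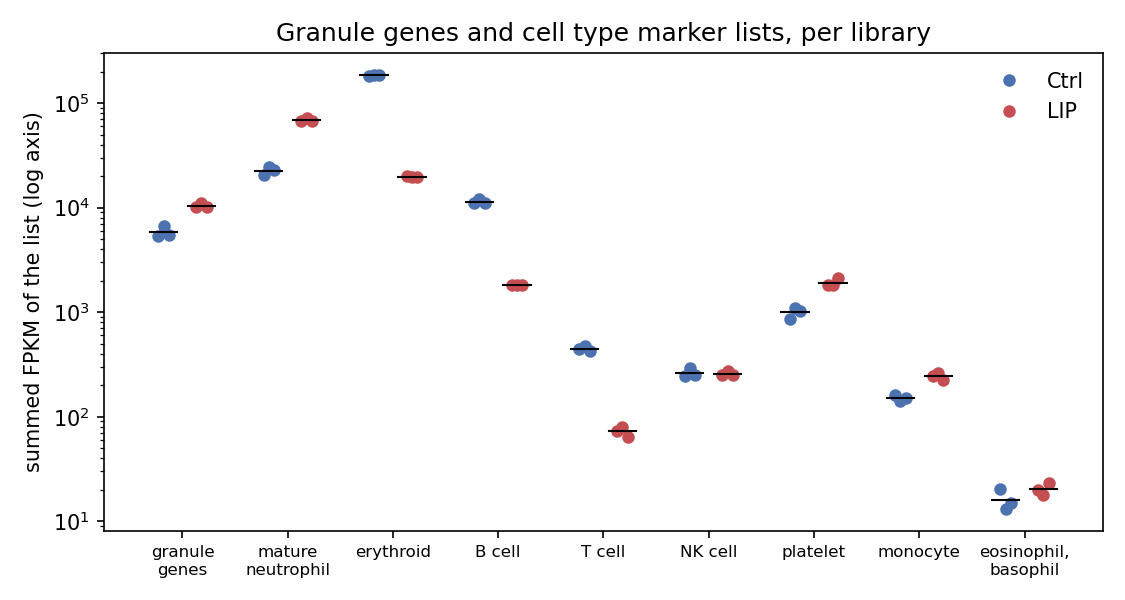
Summed FPKM of the 9 granule genes and of the marker lists of mature neutrophils and other blood cells in each library on a log axis, with Ctrl in blue, LIP in red and black lines at the group means (n = 3 libraries each). The granule genes, the mature neutrophil, platelet and monocyte lists are higher in all LIP libraries on this scale. The erythroid, B cell and T cell lists are lower, and the NK cell list overlaps. With libraries scaled on the mature neutrophil list, 6 of the 9 granule genes and 88.8% of all genes tested are lower in LIP. On that scaling 0.498% of all genes tested are higher, and no platelet or monocyte gene is.

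Genes of cycling neutrophil precursors, in which granule proteins are known to be transcribed most, gave the following values. Of 12 such genes 5 passed the filter, *Stmn1* (-1.03) and *Ube2c* (-2.47) were lower in LIP and none was higher. With TMM 27.2% of all genes tested were lower. Of the 5, 4 were lower in limma with a pseudocount of 1 and 3 with 0.1. In these fits 4249 and 4144 of all 10440 genes tested were lower. On the mature neutrophil scaling 4 of the 5 were lower, as were 88.8% of all genes tested. Summed over the 12, FPKM was 32.2, 43.1 and 28.7 in Ctrl and 15.8, 10.8 and 14.2 in LIP. This sum was lower in all LIP libraries, and most of it in Ctrl came from *Stmn1* (14.6 ± 2.28 FPKM in Ctrl and 5.75 ± 0.339 FPKM in LIP) and *Ube2c* (8.58 ± 2.27 and 1.25 ± 0.755 FPKM). *Ccnb2* and *Birc5* overlapped between the groups, and *Mki67*, below the filter, was at 0.622, 0.267 and 0.667 FPKM in Ctrl and 1.04, 0.647 and 0.674 FPKM in LIP, higher on average in LIP. Several of the 12 are also transcribed by other cycling cells.

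The profile of the granule genes over the 6 libraries, taken as the mean of their standardized log2(CPM + 1) values, was compared with that of 3379 other genes with a mean of at least 10 FPKM. The 5 most alike were *Cfp*, which encodes properdin, a complement regulator that neutrophils keep in secondary granules (Pearson r = 0.9996), the pseudogene *Gapdh-ps16*, *Pilrb2*, *Taldo1* and *Spi1* (r = 0.9992). These correlations describe 6 libraries in 2 groups, and all genes share the depth of those libraries. *Cfp* measured 59.8, 72.3 and 64.1 FPKM in Ctrl and 148, 171 and 162 FPKM in LIP. Ctrl 2 was its highest Ctrl library and LIP 2 its highest LIP library, as for most granule genes, which its choice by profile favours. The log2 fold changes of the 5 were 1.60, 1.37, 1.60, 1.36 and 1.53 in that order. *Gapdh-ps16* shares its sequence with *Gapdh*, and its value is uncertain.

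RefSeq promoter sequences, on build GRCm38.p6 from 250 bases before to 50 bases after the start of a gene, matched 8 of the 9 genes (not *Hp*). They were searched on both strands for 6 short motifs of factors that act in neutrophils. TTNNGNAA, a core of C/EBP sites, was present in 7 of the 8 and in 40.7% of all 32851 promoters. No match was found in the window of *Camp*. GAGGAA, a core of PU.1 sites, was found in 4 (*Ltf*, *Lcn2*, *Cd177* and *Olfm4*; 28.3% of all), and TGTGGT, a core of RUNX sites, in *Ltf* and *Lyz2* (16.8% of all). TTCNNNGAA, a core of STAT sites, occurred in *Chil3* alone (8.30% of all), and a 10-base form of the NF-kB site in *Olfm4* alone (1.63% of all). The 10-base core of interferon response elements was in none (3.44% of all). These matches only describe letters in the windows. RefSeq starts and the gene models of the deposited table differ. The window of *Olfm4* lies wholly inside its gene model, and that of *Camp* has only 89 of its bases upstream of the gene model. What was found in *Olfm4* or not found in *Camp* is therefore not comparable with the other genes. The C/EBP match of *Lyz2*, the PU.1 match of *Lcn2* and the RUNX match of *Ltf* also do not lie wholly upstream of the gene models. The stretches upstream of the gene models are shown for *Lcn2* and *Camp*, the genes with the largest and the smallest rise, and for *Ltf* and *Ngp*, with capitals marking matches to any of the 6 motifs. They read 5′ to 3′ toward the gene and lie at chr2:32387798-32387989 on the minus strand, chr9:109849618-109849706 on the minus strand, chr9:111019042-111019270 on the plus strand and chr9:110419558-110419746 on the plus strand.
Lcn2: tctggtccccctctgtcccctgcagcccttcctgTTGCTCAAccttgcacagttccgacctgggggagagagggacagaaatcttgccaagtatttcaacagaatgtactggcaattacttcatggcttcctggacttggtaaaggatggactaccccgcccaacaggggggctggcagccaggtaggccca
Camp: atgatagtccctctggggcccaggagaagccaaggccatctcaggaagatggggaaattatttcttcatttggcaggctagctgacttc
Ltf: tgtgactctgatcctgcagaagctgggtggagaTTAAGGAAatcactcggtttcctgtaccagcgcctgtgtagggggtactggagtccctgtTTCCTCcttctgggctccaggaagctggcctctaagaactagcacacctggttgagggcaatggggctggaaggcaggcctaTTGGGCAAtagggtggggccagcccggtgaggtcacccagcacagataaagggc
Ngp: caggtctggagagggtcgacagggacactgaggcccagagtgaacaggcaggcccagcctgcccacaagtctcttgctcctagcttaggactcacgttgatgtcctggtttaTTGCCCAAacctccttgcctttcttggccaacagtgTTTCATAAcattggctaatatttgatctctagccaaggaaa

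Similar promoter windows stood beside very different levels in the copies of *Lyz2* and *Chil3*. Aligned over 298 bases, the promoter windows of *Lyz2* and *Lyz1* were identical at 249 positions (83.6%). Mean FPKM in Ctrl was 3190.2 ± 504 for *Lyz2* and 2.71 ± 0.839 for *Lyz1* (SD, 3 libraries each). Of the 49 positions that differed, 48 lay in the 201 bases of *Lyz2* upstream of its gene model, which was less alike than the whole window. The windows of *Chil3* and *Chil4* were identical at 251 of 271 aligned positions (92.6%), and mean FPKM in Ctrl was 167 ± 21.2 and 0.0298 ± 0.0402. The stretches upstream of the lysozyme genes are shown to let the copies be compared, with capitals at aligned bases that differ between them. They lie at chr10:117282322-117282522 and chr10:117292869-117293118, both on the minus strand of GRCm38.p6.
Lyz2: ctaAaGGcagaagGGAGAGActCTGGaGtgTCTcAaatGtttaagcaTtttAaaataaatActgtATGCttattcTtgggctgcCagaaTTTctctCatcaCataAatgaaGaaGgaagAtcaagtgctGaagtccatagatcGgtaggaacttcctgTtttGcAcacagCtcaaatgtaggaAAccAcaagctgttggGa
Lyz1: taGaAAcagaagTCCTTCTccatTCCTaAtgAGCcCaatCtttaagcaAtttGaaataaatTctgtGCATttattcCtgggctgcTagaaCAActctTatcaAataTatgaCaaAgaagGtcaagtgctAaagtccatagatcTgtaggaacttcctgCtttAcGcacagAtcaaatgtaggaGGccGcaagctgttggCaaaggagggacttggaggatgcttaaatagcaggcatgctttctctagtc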

How the data were processed

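Raw count values of reads and FPKM, both computed by the authors, were deposited for 6 Smart-seq2 libraries of pooled mice; cutadapt 1.9, FastQC and GRCm38 are named in the submitters' processing notes, and the aligner, counter and use of strand are not given in the sources used here. Groups came from the treatment labels. For the 50 gene names found on 103 rows, the row of higher mean FPKM stands for the name. Counts were tested with edgeR 4.0.16 (R 4.3.3; quasi-likelihood test, TMM, no replicate block) over the 10440 genes whose mean FPKM reached 1, with Benjamini-Hochberg adjustment over all of them. The common biological coefficient of variation was 0.265. A standard error is the size of the log2 fold change over the square root of F. The steps were tested on simulated data. Alternatives used DESeq2 1.42.0, limma 3.58.1, other scalings and filters, and each library left out.

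Named were the 9 granule genes, from each list the most and least changed genes among those called and the most abundant gene, listed paralogs and regulators, and the 5 genes most alike in profile; *Ptprc*, *Itgam*, *Ly6g*, *Gusb*, *Elane*, *Sytl1*, *Lrp1*, *Itgb2*, *Pecam1*, *Cxcl2*, *Cxcr2* and the genes named only for a level or a filter were added after their values were seen. Not every gene that this rule takes is reported. The members and lists were chosen with earlier results of these data known. Between pairs of libraries in a group, chi-square per gene was 51.9 to 126. This sets separate pools against counting error alone, so it shows only that the libraries were not copies of each other.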

Additional observations from a re-analysis of the deposited data

How the results depend on the processing

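The 9 granule genes kept a positive log2 fold change under median-of-ratios factors, library totals, the 3 other filters, DESeq2, limma, the removal of erythroid, lymphocyte and platelet genes, the replicate block and each left-out library. All 9 passed an adjusted p of 0.05 in each of the 6 fits that left out a library, and only *Camp* was lost elsewhere, with library totals, with at least 5 FPKM and in limma. Scaling on the mature neutrophil list takes about the rise of that list off every gene and turned 7 of them: -0.93 for *Ltf*, -1.45 for *Camp*, -1.03 for *Ngp*, -0.45 for *Cd177*, -1.20 for *Chil3*, -0.48 for *Olfm4*, -0.72 for *Lyz2*. It left 52 genes higher and 9270 lower, against 2766 and 2835. Counts of 2 granule genes higher and 6 lower, 3 and 8 for other secondary and tertiary granule genes, 0 and 6 for primary granule genes, 0 and 8 for regulators, 0 and 8 for trafficking genes and 4 and 6 for the mature neutrophil genes were found there. The other named genes that turned under it were at -1.43 for *Cybb*, -0.00669 for *Mmp9*, -0.11 for *Itgam*, -0.29 for *Ly6g*, -0.67 for *Ptprc*, -0.66 for *Cd63*, -1.34 for *Gusb*, -0.67 for *Cebpa*, -0.44 for *Cebpb*, -0.00757 for *Cebpd*, -1.74 for *Cebpe*, -1.05 for *Cebpg*, -0.31 for *Spi1*, -0.51 for *Stat3*, -1.78 for *Runx1*, -0.67 for *Cux1*, -0.12 for *Klf5*, -0.98 for *Lrp1*, -0.39 for *Itgb2*, -0.50 for *Trf*, -0.84 for *Olfm1*, -0.11 for *Chil5*, -0.53 for *Srgn*, -0.0159 for *Csf3r*, -0.0654 for *Cxcl2*, -1.63 for *Gzma*, -1.25 for *Klrb1c*, -1.36 for *Klre1*, -1.28 for *Ncr1*, -1.37 for *Klrk1*, -0.60 for *Ppbp*, -0.41 for *Itga2b*, -0.75 for *Gp6*, -0.47 for *Csf1r*, -0.13 for *Ccr2*, -0.42 for *Siglecf*, -0.92 for *Gata2*, -0.24 for *Cfp*, -0.47 for *Gapdh-ps16*, -0.24 for *Pilrb2*, -0.48 for *Taldo1*.

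With library totals 1919 genes were higher and 4146 lower, and in limma 2010 and 4249 with a pseudocount of 1 and 1974 and 4144 with 0.1; the median of all genes was -0.42, -0.31 and -0.40 in these 3 settings, and the median of the granule genes was 0.80, 0.82 and 0.82. Primary granule genes higher numbered 1 in each of the 3, and 2 were lower in limma with a pseudocount of 1. With library totals *Cebpe* was at -0.22, *Runx1* at -0.25 and *Gzma* at -0.12, in limma with 1 at -0.27, -0.22 and -0.10, and with 0.1 at -0.30, -0.24 and -0.10. With at least 5 FPKM, where 5328 genes were tested, 1761 genes were higher, 6 trafficking genes were higher and 0 lower, and *Cebpe* and *Runx1* were at -0.0762 and -0.11. Trafficking genes lower numbered 1 with median-of-ratios factors, no filter, filterByExpr and DESeq2, and 1 to 2 with a library left out. *Cebpe* ran from -0.15 to 0.41 with a library left out. Of summed CPM the granule genes held 0.874% in Ctrl and 1.63% in LIP, where gene length is not divided out. With erythroid genes left out of the summed FPKM, an alternative chosen after the values were seen, the share was 1.64% in Ctrl and 2.56% in LIP, since the sum divided by is smaller. The cause of the other changes was not tested.

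Same-numbered libraries came from different mice. Their deviations correlated at 0.021, 0.056 and 0.036, and those of differently numbered libraries at -0.050 to 0.022. Whether same-numbered libraries shared a step of processing was not tested. With the replicate block, 2724 genes were higher and 2822 lower, all 9 granule genes passed, and trafficking genes lower numbered 1. Each p-value rests on 3 pools a group. How far depth limits *Olfm4*, the gene with the fewest reads, was not tested, since reads are not independent molecules.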
